A study of Mus musculus with 14 samples.

Results

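The 9 genes described here mark stages in the birth of neurons and were followed in the hippocampus of young mice: Sox2 and Nes of neural stem and progenitor cells, Eomes and Neurod1 of intermediate progenitors and neuroblasts, Dcx, Sox11, Sox4 and Igfbpl1 of immature neurons, and Calb2, the gene of the calcium binding protein calretinin. They were chosen by symbol as a group of known markers, with earlier results of these data known. They make up 9 of the 36118 genes in the table. All 9 were among the 16637 genes that passed the filter on low counts and were tested. RNA of the whole hippocampus was sequenced from 14 mice of the C57/BL6 breed at postnatal day 15, with 1 library per mouse. Wild-type (WT) littermates and homozygous mice with a knockout (KO) allele of Gsdmd, the gene of the pore-forming protein gasdermin D, had been kept in room air (RA) or in hyperoxia (O2, 85% oxygen) over the first 14 days of life. This gave 4 WT-RA mice, 4 WT-O2 mice, 3 KO-RA mice and 3 KO-O2 mice. In the order used for all values below, WT-RA holds GSD398, GSD399, GSD400 and GSD401, WT-O2 holds GSD404, GSD405, GSD406 and then GSD408, KO-RA holds GSD489, GSD490 and then GSD496, and KO-O2 holds GSD491, GSD494 and then GSD495.

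The KO allele was made with CRISPR/Cas9, carries a small deletion within an exon and is present in every cell of the animal, so these comparisons do not point to any 1 cell type. WT mice carried numbers of GSD398 to GSD408 and KO mice GSD489 to GSD496, and genotype cannot be told apart from this range of numbers. For mouse GSD408 the title of the public record gives hyperoxia and its treatment field room air. It was taken as WT-O2. The libraries summed to 27272270 to 28257496 estimated counts. Gsdmd (ENSMUSG00000022575) was examined first as the check of genotype. Its counts were 41 to 51 in WT-RA, 51 to 63 in WT-O2, 22 to 42 in KO-RA and 36 to 40 in KO-O2, so reads of the gene were present in KO mice. In CPM (counts scaled to a common library size) every KO library lay below the WT libraries of its exposure, although in room air the gap was narrow, since KO-RA mouse GSD490 and WT-RA mouse GSD401 were both at 1.47 CPM. Gsdmd had a log2 fold change of -0.46 ± 0.20 in room air (edgeR q = 0.168, not called) and -0.58 ± 0.19 in hyperoxia (edgeR q = 0.0962, called). Gene totals do not show whether a transcript holds the deletion.

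Neurons are added to the dentate gyrus of the hippocampus after birth. Stem cells with Sox2 and the intermediate filament nestin (Nes) give rise to intermediate progenitors, which turn on the transcription factor Eomes (Tbr2) and then Neurod1. Their daughters become migrating neuroblasts and immature granule neurons with the microtubule binding protein doublecortin (Dcx) and the transcription factors Sox4 and Sox11. Calretinin appears for a short time in new granule neurons, and it also marks interneurons, mossy cells of the mouse hilus, Cajal-Retzius cells and many cells of the midline thalamus.

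The stretch upstream of the start is shown for Eomes, Neurod1 and Sox11, the called members (below) with an entry, and for Sox2, which was not called in any comparison. The sequences are the 250 bases before the transcription start in RefSeq on GRCm38.p6, a build other than the GRCm39 named for the counts, and capitals mark the E-box CANNTG, the core recognised by basic helix-loop-helix factors such as Neurod1. Eomes lies on the plus strand at chr9:118477939-118478188, Neurod1 on the minus strand at chr2:79456637-79456886, Sox11 on the minus strand at chr12:27342719-27342968 and Sox2 on the plus strand at chr3:34649745-34649994.
Eomes: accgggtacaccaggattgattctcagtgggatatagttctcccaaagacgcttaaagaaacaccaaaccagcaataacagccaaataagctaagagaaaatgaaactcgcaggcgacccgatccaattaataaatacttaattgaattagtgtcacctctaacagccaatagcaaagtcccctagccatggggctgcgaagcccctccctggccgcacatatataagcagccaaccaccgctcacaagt
Neurod1: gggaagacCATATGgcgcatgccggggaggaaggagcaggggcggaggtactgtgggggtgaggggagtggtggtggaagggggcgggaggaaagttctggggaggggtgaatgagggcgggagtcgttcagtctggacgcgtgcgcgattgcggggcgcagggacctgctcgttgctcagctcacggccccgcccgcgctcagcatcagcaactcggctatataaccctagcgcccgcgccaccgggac
Sox11: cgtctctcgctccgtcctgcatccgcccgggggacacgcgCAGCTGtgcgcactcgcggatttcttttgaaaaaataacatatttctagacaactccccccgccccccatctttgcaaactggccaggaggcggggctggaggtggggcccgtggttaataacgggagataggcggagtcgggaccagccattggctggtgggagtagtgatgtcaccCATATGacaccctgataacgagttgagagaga
Sox2: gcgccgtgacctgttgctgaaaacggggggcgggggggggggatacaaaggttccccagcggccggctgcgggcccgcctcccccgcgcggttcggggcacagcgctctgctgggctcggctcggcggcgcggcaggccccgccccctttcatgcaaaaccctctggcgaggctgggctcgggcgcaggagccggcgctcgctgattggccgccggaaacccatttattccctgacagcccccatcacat

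The table of promoters held 7 of the 9 genes, and Calb2 and Igfbpl1 were not among them. CANNTG reads the same on both strands and was found in 3 of the 7 genes, once in Neurod1 (CATATG), once in Sox4 (CAGCTG) and at 2 places in Sox11 (CAGCTG and CATATG). No match lay in these 250 bases of Eomes, Sox2, Nes or either start of Dcx. Over all 32851 promoters of the table, 66.2% held at least 1 match. The 4 stretches shown differed in base composition. GC content was 46.4% for Eomes, 58% for Sox11, 67.6% for Neurod1 and 72% for Sox2, with a median of 52.4% over all promoters. Their ratio of observed to expected CpG was 0.621, 0.810, 0.841 and 0.833 in the same order, each above the median of 0.373, whereas the 2 starts of Dcx had 0.279 and 0.241.

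Sox2 and Nes, the genes of the earliest stage, had similar levels in all 4 groups. Expression is given as CPM, the counts of a gene scaled to a common library size with TMM. Sox2 was at 39.6, 40.5, 35.1 and 46.2 CPM in WT-RA and at 41.0, 34.6, 38.5 and 36.7 CPM in WT-O2. It was at 38.5, 39.7 and 36.0 CPM in KO-RA and at 36.2, 34.7 and 35.5 CPM in KO-O2. The groups overlapped in each comparison, and the highest value of the 14 was that of WT-RA mouse GSD401. The log2 fold change of Sox2 lay between -0.10 and -0.08 in the 4 pairwise comparisons. The 95% interval for KO-RA vs WT-RA ran from -0.26 to 0.09 and that for KO-O2 vs WT-O2 from -0.26 to 0.09 (edgeR q = 0.611 and 0.643).

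Nes was at 18.9 to 24.9 CPM in WT-RA, 19.4 to 22.2 CPM in WT-O2, 19.1 to 22.5 CPM in KO-RA and 16.9 to 21.8 CPM in KO-O2. Its log2 fold changes lay between -0.07 and -0.03. The 95% interval was -0.27 to 0.19 for KO-RA vs WT-RA and -0.30 to 0.16 for KO-O2 vs WT-O2. These bounds span folds of 0.810 to 1.14.

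Eomes and Neurod1, of intermediate progenitors and early neuroblasts, were higher in KO than in WT mice in both room air and hyperoxia. Eomes (ENSMUSG00000032446) was at 2.44, 2.96, 2.12 and 1.15 CPM in WT-RA mice GSD398 to GSD401 and at 3.88, 2.94, 3.43 and 3.47 CPM in the WT-O2 mice. It was at 6.54, 8.53 and 4.73 CPM in the KO-RA mice and at 7.37, 6.16 and 6.75 CPM in the KO-O2 mice. Every KO library lay above every WT library. The rise was 3.04-fold in room air, with a log2 fold change of 1.61 ± 0.24 (SE, 3 KO and 4 WT mice) and an edgeR q of 0.00102, and 1.97-fold in hyperoxia, with 0.98 ± 0.24 and an edgeR q of 0.0245.

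Neurod1 (ENSMUSG00000034701), a transcription factor needed for granule neurons to form, had the same order of groups at a higher level. It was at 37.8, 39.2, 33.7 and 18.8 CPM in WT-RA and at 57.3, 40.3, 49.5 and 37.4 CPM in WT-O2. In KO mice it was at 95.2, 71.7 and 73.8 CPM in KO-RA and at 77.3, 85.4 and 87.5 CPM in KO-O2. The lowest KO library, at 71.7 CPM, lay above the highest WT library, at 57.3 CPM. KO-RA exceeded WT-RA 2.48-fold (log2 fold change 1.31 ± 0.20, edgeR q = 0.00112) and KO-O2 exceeded WT-O2 1.81-fold (0.85 ± 0.20, edgeR q = 0.0203). In RNA of a whole tissue, more cells of a stage and more RNA per cell cannot be told apart.

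**Figure D1:**
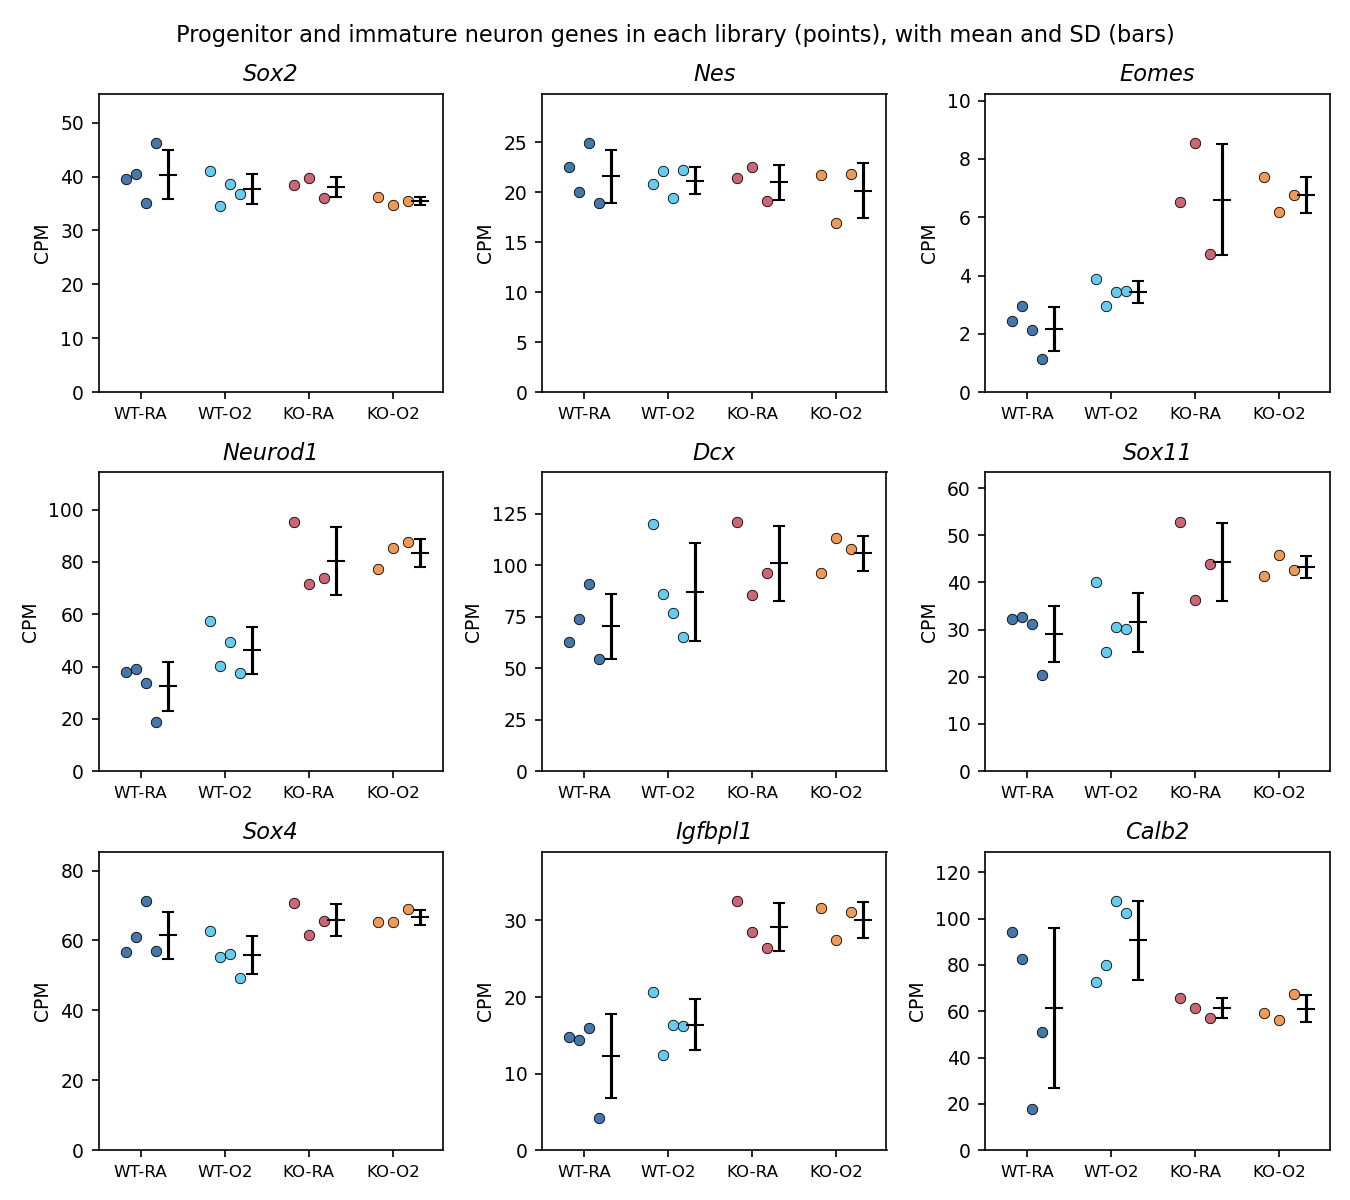
Expression of the 9 genes in CPM, 1 point per library, with the group mean and SD as bars beside the points and 1 panel per gene. Sox2 and Nes lay at similar levels in the 4 groups, whereas all 6 KO libraries lay above all 8 WT libraries for Eomes, Neurod1 and Igfbpl1. The share of all genes tested that separate in this way was not computed.

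Among the genes of immature neurons, Igfbpl1 and Sox11 rose in KO-RA, while Dcx and Sox4 did not pass the test. Igfbpl1 (ENSMUSG00000035551), which encodes an insulin-like growth factor binding protein-like protein of newborn neurons, was at 14.8, 14.4, 15.9 and 4.20 CPM in WT-RA and at 20.6, 12.4, 16.4 and 16.2 CPM in WT-O2. It was at 32.5, 28.5 and 26.4 CPM in KO-RA and at 31.6, 27.4 and 31.1 CPM in KO-O2. Every KO value lay above every WT value, and the 4.20 CPM of WT-RA mouse GSD401 was far below the rest. The log2 fold change was 1.24 ± 0.29 for KO-RA vs WT-RA (edgeR q = 0.0144) and 0.88 ± 0.29 for KO-O2 vs WT-O2 (edgeR q = 0.0962). The second call was close to the threshold of 0.1. It was lost when any 1 of 10 mice was left out (GSD399, GSD405, GSD406, GSD408 and all KO mice, edgeR q = 0.110 to 0.239), with DESeq2 (q = 0.117), with library sizes in place of TMM (edgeR q = 0.103), at a threshold of q = 0.05 and with mouse GSD408 taken as room air (edgeR q = 0.185), although the log2 fold change stayed between 0.76 and 1.00.

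Sox11 (ENSMUSG00000063632), a transcription factor upstream of Dcx in new neurons, was at 32.3, 32.7, 31.2 and 20.3 CPM in WT-RA and at 40.1, 25.3, 30.6 and 30.1 CPM in WT-O2. It was at 52.7, 36.2 and 43.8 CPM in KO-RA and at 41.3, 45.8 and 42.7 CPM in KO-O2. KO and WT did not overlap within room air or within hyperoxia, although WT-O2 mouse GSD404 exceeded KO-RA mouse GSD490. The log2 fold change was 0.60 ± 0.17 in room air (edgeR q = 0.0362) and 0.46 ± 0.17 in hyperoxia, where it was not called (edgeR q = 0.144). Both sides of the threshold rested on single mice. Without KO-RA mouse GSD489 the room air value was 0.46 and no longer called (edgeR q = 0.181), and the hyperoxia value was called without WT-RA mouse GSD401 (0.47, edgeR q = 0.0636), without WT-O2 mouse GSD404 (0.59, edgeR q = 0.0471), with DESeq2 (q = 0.0735) and when only KO-O2 and WT-O2 were fitted (0.47, edgeR q = 0.0541).

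Dcx (ENSMUSG00000031285) varied widely within the WT groups. It was at 62.7, 73.7, 90.7 and 54.3 CPM in WT-RA, at 120.1, 86.0, 76.9 and 65.0 CPM in WT-O2, at 120.9, 85.6 and 96.3 CPM in KO-RA and at 96.3, 113.1 and 108.2 CPM in KO-O2. The groups overlapped in all 4 comparisons, since WT-RA mouse GSD400 lay above KO-RA mouse GSD490 and WT-O2 mouse GSD404 above all KO-O2 mice. The log2 fold change was 0.52 ± 0.19 for KO-RA vs WT-RA (edgeR q = 0.108) and 0.28 ± 0.19 for KO-O2 vs WT-O2 (edgeR q = 0.482). The first value was called without WT-RA mouse GSD400 (0.67, edgeR q = 0.0339), WT-O2 mouse GSD404 (0.52, edgeR q = 0.0521) or WT-O2 mouse GSD408 (0.53, edgeR q = 0.0783), and with mouse GSD408 taken as room air (0.54, edgeR q = 0.0442). It was also called with no filter on low counts and with at least 10 counts in every library.

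Sox4, which acts with Sox11 in new neurons, had the smallest differences of these 4 genes. It was at 56.8 to 71.2 CPM in WT-RA, 49.3 to 62.6 CPM in WT-O2, 61.6 to 70.7 CPM in KO-RA and 65.3 to 69.0 CPM in KO-O2. The KO-O2 and WT-O2 libraries did not overlap, but the log2 fold change of 0.26 ± 0.09 did not pass the test (edgeR q = 0.115). In room air it was 0.10 ± 0.09 (edgeR q = 0.559), with a 95% interval of -0.09 to 0.29.

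**Figure D2:**
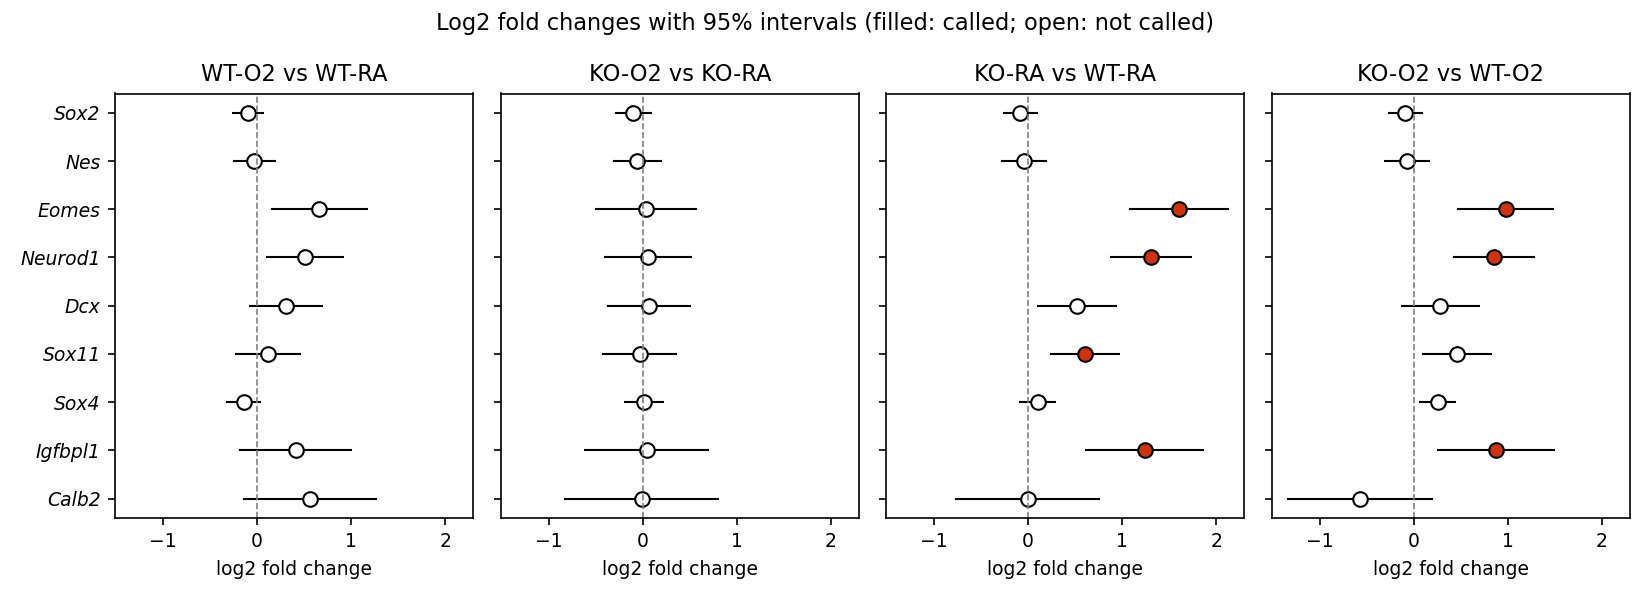
Log2 fold changes of the 9 genes in the 4 pairwise comparisons, with 95% intervals from the edgeR fit, where filled points were called and open points were not. The filled points are Eomes, Neurod1, Igfbpl1 and Sox11 in KO-RA vs WT-RA and Eomes, Neurod1 and Igfbpl1 in KO-O2 vs WT-O2.

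Read together by genotype, 4 of the 9 genes were called in KO-RA vs WT-RA and 3 of 9 in KO-O2 vs WT-O2, all higher in KO. Calls needed a log2 fold change of 0.32 or more in size, with p under 0.05 and q under 0.1. Over all 16637 genes, 10.4% were called in KO-RA vs WT-RA and 6.86% in KO-O2 vs WT-O2, and 3.75% and 2.51% were called with a higher level in KO. The KO and WT libraries did not overlap for 4 genes in room air and 6 in hyperoxia, where this held for 19.6% and 19% of all genes tested. For Eomes, Neurod1 and Igfbpl1 all KO libraries lay above all WT libraries across both exposures. The share of all genes tested for which this holds was not computed. The median log2 fold change of the 9 genes was 0.52 in room air and 0.28 in hyperoxia, beside -0.01 over all genes in both. Because the 9 genes were chosen with earlier results of these data known, setting them beside all genes is a description and not a test. Without WT-O2 mouse GSD404, the median in hyperoxia was 0.48. Eomes and Neurod1 were called in both comparisons under all 23 alternative settings.

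None of the 9 genes was called between hyperoxia and room air in either genotype, by edgeR or by DESeq2. In WT mice the medians of Eomes were 2.28 CPM in room air and 3.45 CPM in hyperoxia, and the groups overlapped only because WT-RA mouse GSD399 was just above WT-O2 mouse GSD405. The log2 fold change of Eomes in WT-O2 vs WT-RA was 0.66 ± 0.24 (edgeR q = 0.263) and that of Neurod1 was 0.51 ± 0.19 (edgeR q = 0.287). These 2 of the 9 genes had an unadjusted p below 0.05, as did 12.2% of all genes tested. Without WT-RA mouse GSD401, the lowest for both, the values were 0.45 (edgeR q = 0.374) and 0.32 (edgeR q = 0.378). Calb2, Igfbpl1 and Dcx had log2 fold changes of 0.56, 0.41 and 0.31, and Sox11, Nes, Sox2 and Sox4 of 0.11, -0.03, -0.10 and -0.14 (edgeR q = 0.534 to 0.945). Single mice moved the first 3 of these values. Calb2 was at 0.25 without WT-RA mouse GSD400 and at 0.85 without WT-RA mouse GSD398, Igfbpl1 at 0.12 without WT-RA mouse GSD401, and Dcx at 0.11 without WT-O2 mouse GSD404 and at 0.20 without WT-RA mouse GSD401.

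In KO mice the log2 fold changes of KO-O2 vs KO-RA lay between -0.10 and 0.07 (edgeR q of at least 0.997), the groups overlapped for all 9 genes, and 0 of the 9 had an unadjusted p below 0.05. Called genes made up 0.643% of all genes in WT-O2 vs WT-RA and 0.012% in KO-O2 vs KO-RA, and groups did not overlap for 5.99% and 11.8%. The 95% interval in KO mice was -0.49 to 0.56 for Eomes, -0.40 to 0.51 for Neurod1 and -0.19 to 0.22 for Sox4. For Eomes and Neurod1 the differences seen between genotypes lie outside these intervals. Differences that lie within the interval of a gene are not excluded. The interaction, which tests whether the response to hyperoxia differed between genotypes, was not called by edgeR or DESeq2 for any of the 9 genes, and edgeR called 0% of all genes. An unadjusted p below 0.05 was found for 0 of the 9 and for 4.05% of all genes. By edgeR the interaction was -0.63 ± 0.34 for Eomes, -0.45 ± 0.28 for Neurod1 and -0.57 ± 0.50 for Calb2 (q = 1.00 for each). It was -0.41 for Eomes and -0.26 for Neurod1 without WT-RA mouse GSD401, -0.40 for Eomes without KO-RA mouse GSD490, and -0.26 for Calb2 without WT-RA mouse GSD400.

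Calb2 (ENSMUSG00000003657) was the most variable of the 9 genes in WT-RA. It was at 94.3, 82.8, 17.7 and 51.2 CPM in WT-RA, at 72.6, 79.9, 107.5 and 102.5 CPM in WT-O2, at 65.6, 61.4 and 57.1 CPM in KO-RA and at 59.1, 56.3 and 67.5 CPM in KO-O2. Its coefficient of variation was 56.0% in WT-RA and 6.86% in KO-RA. KO-RA lay wholly within the spread of WT-RA (log2 fold change -0.00 ± 0.36), and KO-O2 lay below all WT-O2 libraries, with -0.57 ± 0.36 (edgeR q = 0.438). The last value was called when only KO-O2 and WT-O2 were fitted (-0.56, edgeR q = 0.0274) and when WT-RA mouse GSD400 was left out (-0.56, edgeR q = 0.0726). The thalamic transcription factor Tcf7l2 was at 113.6, 52.4, 8.90 and 22.4 CPM in WT-RA mice GSD398 to GSD401. It was at 29.8, 44.3, 51.5 and 64.9 CPM in WT-O2 and at 6.65 to 8.48 CPM in the KO mice. Shox2, also of the thalamus, was at 27.0, 7.26, 0.177 and 5.92 CPM in WT-RA and at 2.93, 2.90, 11.3 and 21.5 CPM in WT-O2. In the KO mice Shox2 was at 0.0350 to 0.179 CPM. The part of such cells in Calb2 was not tested.

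Counts of 1 gene over those of another in the same library do not depend on the scaling between libraries. The ratio of Neurod1 to Sox2 was 0.406 to 0.970 in WT-RA, 1.02 to 1.40 in WT-O2, 1.81 to 2.47 in KO-RA and 2.13 to 2.46 in KO-O2. For Eomes to Sox2 it was 0.0249 to 0.0731, 0.0850 to 0.0946, 0.132 to 0.215 and 0.177 to 0.204 in the same order. All WT-RA mice lay below all WT-O2 mice in both ratios, and both WT groups below both KO groups. The ratios were not tested, and the share of gene pairs that separate in this way was not computed. By edgeR, neither Eomes (q = 0.263) nor Neurod1 (q = 0.287) was called in WT-O2 vs WT-RA. WT-RA mouse GSD401 had the lowest value of both ratios and the highest Sox2 of its group. Igfbpl1 to Sox2 was 0.0909 to 0.454 in WT-RA and 0.358 to 0.502 in WT-O2, against 0.719 to 0.845 in KO-RA and 0.789 to 0.876 in KO-O2. Sox11 to Sox2 was 0.441 to 0.889 in WT-RA and 0.913 to 1.37 in KO-RA, and 0.731 to 0.978 in WT-O2 and 1.14 to 1.32 in KO-O2, so that WT and KO were apart within each exposure but overlapped across them. For Dcx the ratios of WT and KO overlapped, at 1.18 to 2.93 in WT and 2.16 to 3.26 in KO.

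**Figure D3:**
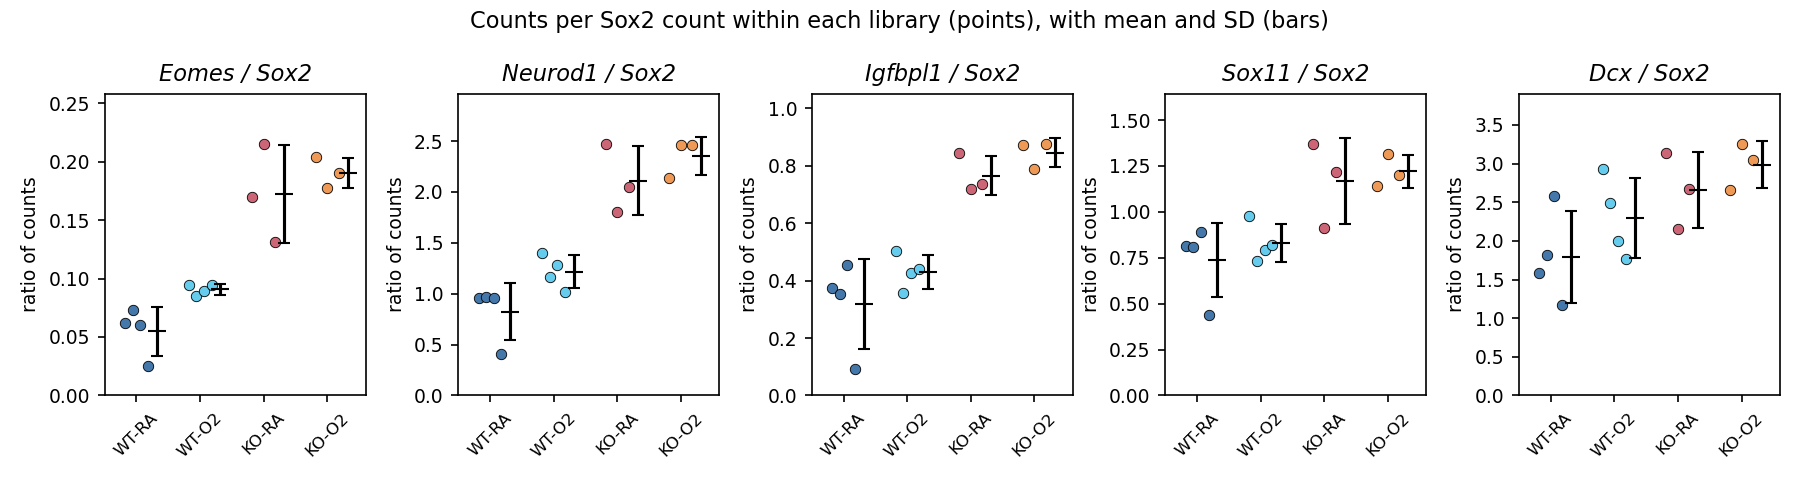
Ratio of the counts of Eomes, Neurod1, Igfbpl1, Sox11 and Dcx to those of Sox2 within each library, 1 point per library, with mean and SD as bars. For Eomes and Neurod1 the WT-RA, WT-O2 and KO libraries occupy separate ranges, and for Sox11 and Dcx the WT and KO ranges overlap across exposures. The share of gene pairs with such separate ranges was not computed.

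Levels of different genes were compared after dividing CPM by the merged exon length in kilobases. In WT-RA the mean levels per kilobase ran from 35.3 for Calb2 over 19.6 for Sox2, 12.8 for Sox4, 11.9 for Neurod1, 5.56 for Dcx, 3.79 for Igfbpl1, 3.50 for Sox11 and 3.36 for Nes to 0.521 for Eomes. Only Sox2 and Sox4, and Nes and Eomes, were neighbours whose WT-RA libraries did not overlap. In KO-RA, Neurod1 stood second at 29.4, behind Calb2 at 35.2, whose libraries it overlapped, and ahead of Sox2 at 18.5. Igfbpl1 at 8.97 stood before Dcx at 7.98, with overlap, and the places of Sox11 (5.33), Nes (3.27) and Eomes (1.59) were the last 3, without overlap between them.

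The 9 genes did not vary together in all libraries. WT-RA mouse GSD401 was the lowest of its group for 6 of them (Dcx, Sox11, Eomes, Neurod1, Nes and Igfbpl1) and the highest for Sox2. WT-O2 mouse GSD404 was the highest of its group for 7 and KO-RA mouse GSD489 for 6. The coefficient of variation within a group ran from 2.10% in KO-O2 to 11.2% in WT-RA for Sox2, and from 8.96% in KO-O2 to 35.2% in WT-RA for Eomes. Likeness of 2 genes was measured by the root mean square difference of their log2 CPM, standardised over the 14 libraries, so that 0 means the same profile. Among the 9 genes the closest pairs were Neurod1 and Igfbpl1 (0.305), Eomes and Neurod1 (0.310) and Eomes and Igfbpl1 (0.355).

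**Figure D4:**
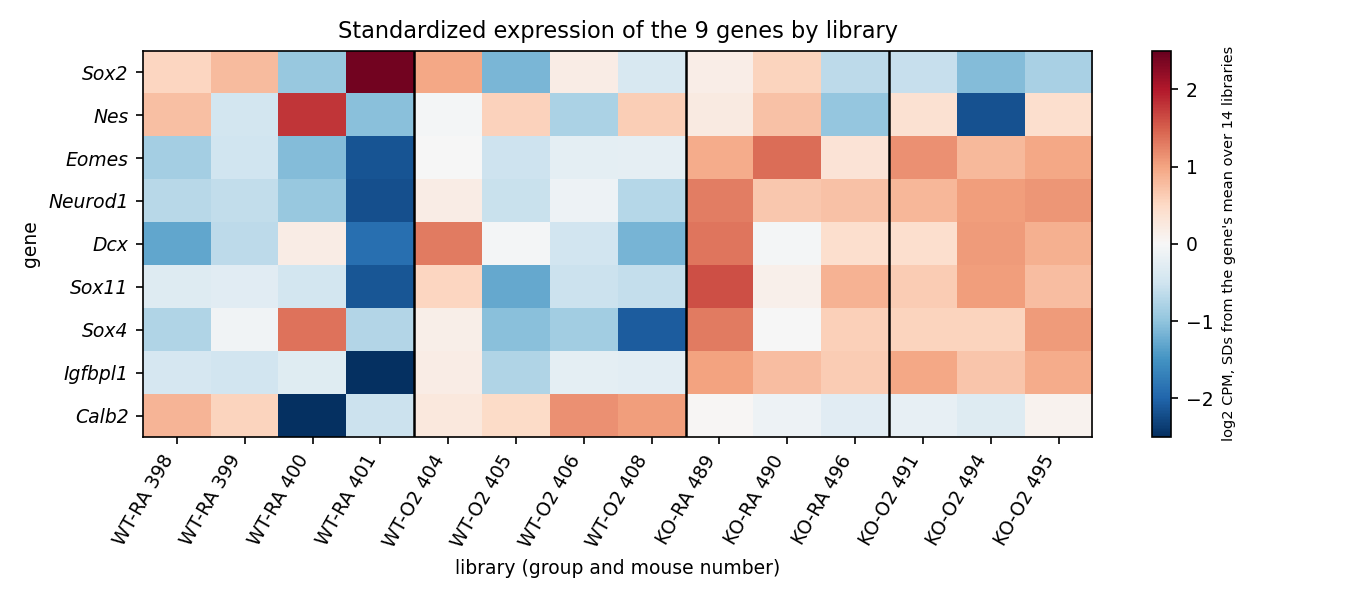
Log2 CPM of the 9 genes in the 14 libraries, in SDs from the mean of each gene over all libraries, with red above and blue below and values past the ends of the scale in the end colours. Eomes, Neurod1, Igfbpl1 and Sox11 lie above their means in all 6 KO libraries, and WT-RA mouse GSD401 is dark blue for 5 genes and dark red for Sox2.

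Among 14466 genes of at least 1 CPM, the 3 most like Eomes were Smoc2 (0.304), Sh3bp5 (0.307) and Neurod1 (0.310), with a median of 1.39 over all genes. Kcnd3 (0.427), Nrip2 (0.471) and Arsj (0.473) were the most like Calb2, and Rad17 (0.584), Adprm (0.617) and Sigirr (0.630) the most like Sox2, so Sox2 had no gene as close as Eomes or Calb2 did. These values describe profiles over libraries that share their groups.

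Other genes of the lineage were read from marker lists, which were also chosen with earlier results of these data known. Of 16 radial glia and stem cell genes, 5 rose and 1 fell in KO-RA vs WT-RA, where DESeq2 called 2 lower, and 3 rose in KO-O2 vs WT-O2. The log2 fold change was positive for 6 of the 16 in room air, with a median of -0.05, and for 9 of the 16 in hyperoxia, with a median of 0.07. The summed level of the 16 genes was 1133 to 1355 CPM in WT-RA and 1567 to 1587 CPM in KO-RA. In hyperoxia it was 1312 to 1393 CPM in WT-O2 and 1552 to 1721 CPM in KO-O2. KO and WT sums did not overlap, which was not tested. Slc1a3 and Gfap, at means of 682 and 323 CPM, made up most of this sum. The homeobox genes Emx2 and Hopx rose by 1.11 and 0.83 (log2 fold change, edgeR q = 0.000179 and 7.89e-05) in room air and by 0.80 and 0.70 (edgeR q = 0.00240 and 0.000350) in hyperoxia, and Lpar1, also a gene of oligodendrocytes, fell by 1.13 (edgeR q = 0.0147) in room air. Hopx is also expressed in astrocytes and Emx2 across the medial pallium. Of 25 genes of intermediate progenitors and neuroblasts, 10 rose and none fell by edgeR in room air, where DESeq2 called 10 higher and 1 lower, and 5 rose and none fell by edgeR in hyperoxia, where DESeq2 called 8 higher and 0 lower. Nhlh1, of newly born neurons, rose by 1.13 in room air (edgeR q = 0.0314) and by 1.09 in hyperoxia (edgeR q = 0.0539). The mean of Nhlh1 over all libraries was only 1.26 CPM, so its counts were low. Tfap2c, of intermediate progenitors, was at 0.287 to 1.27 CPM in WT-RA and 1.52 to 1.64 CPM in KO-RA and rose by 1.24 (edgeR q = 0.0296). These values rest on 8 to 46 counts per library. In hyperoxia it was at 0.879 to 1.09 CPM in WT-O2 and 1.54 to 1.65 CPM in KO-O2. Neurog2, of the same list, overlapped in room air, at 1.36 to 2.98 CPM in WT-RA and 2.38 to 4.05 CPM in KO-RA. It did not overlap in hyperoxia, at 2.11 to 2.62 CPM in WT-O2 and 3.48 to 4.22 CPM in KO-O2. Medians of the 25 genes were 0.21 and 0.15 in room air and hyperoxia, beside -0.01 over all genes. Their summed level overlapped between KO and WT in both exposures. It was 4028.5 to 6150.3 CPM in WT-RA and 5194 to 5794 CPM in KO-RA, and 4781 to 5911 CPM in WT-O2 and 5342 to 5660 CPM in KO-O2.

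Prox1, which marks granule neurons from their birth onward, followed Eomes and Neurod1 in WT-RA mouse GSD401. It was at 149.9, 109.4, 74.6 and 35.8 CPM in WT-RA, at 159.5, 82.2, 132.3 and 143.5 CPM in WT-O2, at 245.0, 170.0 and 183.4 CPM in KO-RA and at 218.4, 232.4 and 250.6 CPM in KO-O2. All KO libraries lay above all WT libraries, and the difference was called in room air (log2 fold change 1.11 ± 0.33, edgeR q = 0.0468) but not in hyperoxia (0.85 ± 0.33, edgeR q = 0.162). Of 10 genes of mature granule neurons, 7 rose and 1 fell in room air and 2 rose and 1 fell in hyperoxia. Dsp, Tdo2 and Lct rose by 1.29, 1.26 and 1.16 (edgeR q = 0.0379, 0.00512 and 0.0322) in room air. Calb1, the gene of calbindin, was the 1 gene of these 3 lists that edgeR called in WT-O2 vs WT-RA, where it rose by 0.55 (edgeR q = 0.0623). DESeq2 called 2 genes of the neuroblast list higher there, and 1 higher and 1 lower of the radial glia list, and 6 and 7 genes had an unadjusted edgeR p below 0.05. No gene of the 3 lists was called in KO-O2 vs KO-RA by edgeR or DESeq2, where 2 radial glia genes had an unadjusted p below 0.05.

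Of 16 proliferation genes, 2 rose in KO-RA vs WT-RA, the replication gene Mcm6 by 0.50 (edgeR q = 0.0112) and the cyclin gene Ccnd2 by 0.47 (edgeR q = 0.00363), and none was called in hyperoxia or between exposures by edgeR or DESeq2, where 0 to 3 had an unadjusted p below 0.05. Mki67, the gene of the Ki-67 antigen, was at 14.6 to 22.5 CPM in WT-RA, 17.7 to 22.8 CPM in WT-O2, 17.5 to 21.3 CPM in KO-RA and 17.9 to 19.0 CPM in KO-O2, with overlap in all comparisons. Of 8 genes of ventral forebrain and olfactory-bound neuroblasts, 5 fell in room air and 4 in hyperoxia, among them Meis2 by 0.76 (edgeR q = 0.00293) and 1.06 (edgeR q = 0.000687), and Isl1, also a gene of the striatum, by 3.83 (edgeR q = 0.000794) and 3.86 (edgeR q = 0.00126).

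Cell types that share a gene with the 9 were counted in the same way. Of 8 Cajal-Retzius genes, which share Eomes and Calb2, 3 rose in room air (Ndnf, Trp73 and Reln, by 0.89, 0.72 and 0.42, edgeR q = 0.00429, 0.0157 and 0.0287) and 1 in hyperoxia (Ndnf), where DESeq2 called 3. Their summed level was 200.2 to 263.6 CPM in WT-RA, 251.0 to 324.9 CPM in WT-O2, 307.5 to 356.8 CPM in KO-RA and 314.3 to 381.3 CPM in KO-O2. Of 13 interneuron genes tested, which share Calb2, 5 fell in room air and 3 in hyperoxia. Of 4 mossy cell genes, 2 fell in each by edgeR, Ajap1 and Drd2, of which Drd2 is also a gene of the striatum. The other 2 had positive log2 fold changes in both and were not called. By DESeq2, 1 of the 4 fell in room air and 2 fell in hyperoxia. The part of these cells in the values of Eomes and Calb2 was not tested.

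Markers of neighbouring tissue moved with genotype beside the genes above. All 12 striatal genes fell in both genotype comparisons, and their summed level was 423.7 to 963.9 CPM in WT libraries and 163.6 to 271.4 CPM in KO libraries. Of 14 thalamic genes, 9 fell in room air and 7 in hyperoxia, with sums of 185.4 to 1029 CPM in WT and 175.4 to 225.2 CPM in KO libraries. Of 10 oligodendrocyte genes, 8 fell in room air and 3 in hyperoxia, with sums of 4652 to 16674 CPM in WT and 3292 to 5403 CPM in KO libraries. Of 16 genes of the hippocampal fields, 10 rose in room air and 8 in hyperoxia and none fell, with sums of 2060 to 2997 CPM in WT and 3137 to 3652 CPM in KO libraries. The part of the dissected tissue in the higher Eomes, Neurod1, Igfbpl1 and Sox11 was not tested. Sox2 itself is also expressed in glia within and outside the hippocampus.

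Of the other lists, 0 of 12 genes of endothelium and pericytes, 0 of 8 of microglia and 0 of 8 of ependyma and choroid plexus were called by edgeR in any comparison, with 0 to 4, 0 to 1 and 0 to 2 at an unadjusted p below 0.05. DESeq2 called 1 endothelial gene in WT-O2 vs WT-RA and 1 ependymal gene in KO-RA vs WT-RA, both lower. By edgeR, 1 of 10 astrocyte genes was called, Slc1a2, which rose in KO-O2 vs WT-O2 by 0.37 (edgeR q = 0.0298). The sum of the ependyma and choroid plexus genes ran from 51.9 to 3302 CPM within KO-RA. Between exposures, the thalamic gene Rorb, lower by 0.53 in WT-O2 (edgeR q = 0.0940), and Calb1 were the only genes of the 16 lists that edgeR called in WT. DESeq2 also called genes of the hippocampal field list (2 higher), the Cajal-Retzius list (1 higher) and the interneuron list (1 lower) there. No listed gene was called in KO by edgeR or DESeq2.

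**Figure D5:**
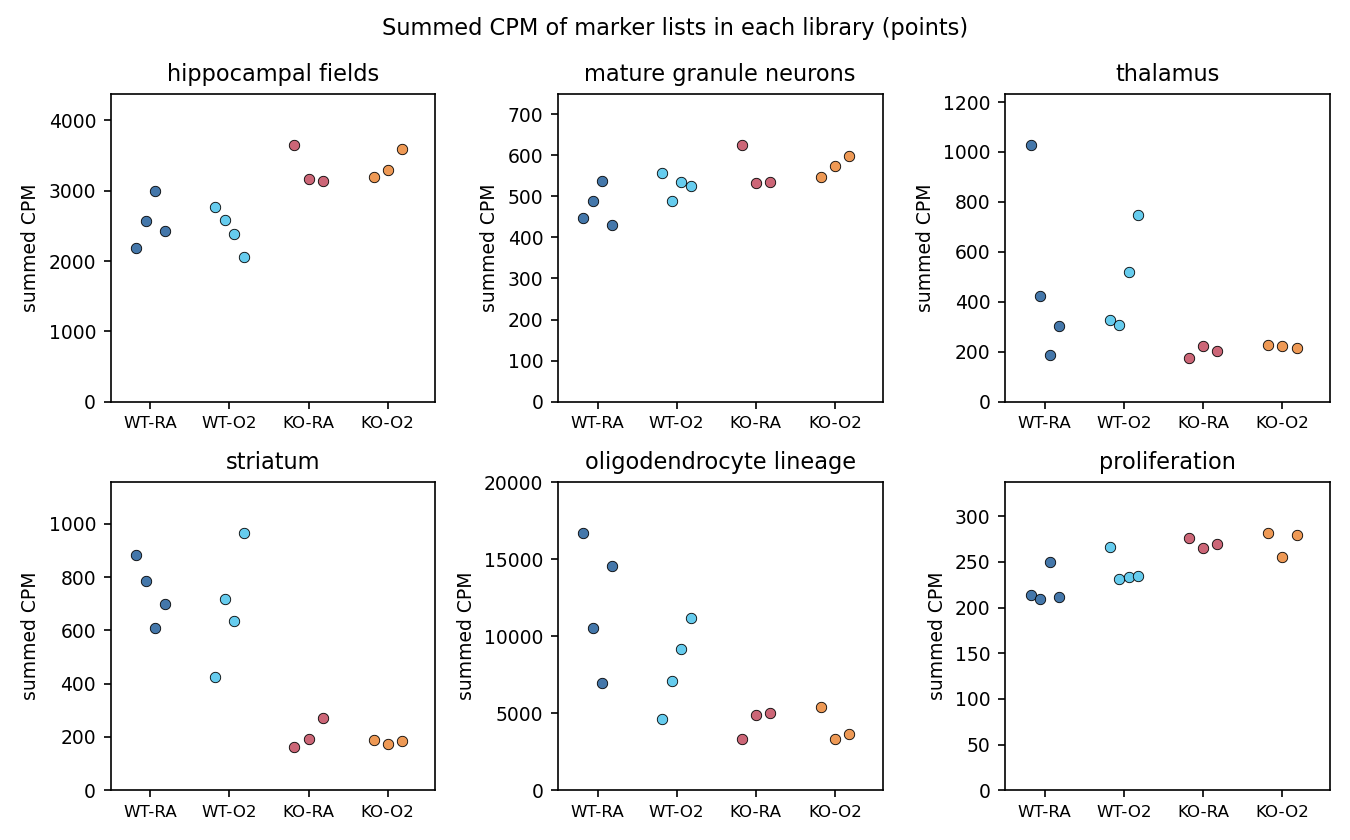
Summed CPM of 6 marker lists, 1 point per library. The hippocampal field list is higher and the striatum list lower in all 6 KO libraries than in all 8 WT libraries. The thalamus list ranges from 185 to 1029 CPM in WT, and the WT and KO ranges of the mature granule neuron and proliferation lists overlap.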

How the data were processed

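Polyadenylated RNA of the hippocampus was sequenced by the authors from 14 mice, which were the replicates. The deposited values are estimated counts per gene, made by the authors with Kallisto and tximport; tool versions and the scaling in tximport are not given in the sources used here. Kallisto, DESeq2 and the build GRCm39 are named in the submitters' processing notes.

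Estimated counts were rounded. Genes were filtered with filterByExpr, normalized by TMM and fitted with the quasi-likelihood model of edgeR 4.0.16 in R 4.3.3, with 1 coefficient for each of the 4 groups and no covariate, in all 14 libraries. Tests were two-sided and p was adjusted by Benjamini-Hochberg over 16637 genes (q). CPM used TMM-scaled library sizes, and log2 CPM had a prior count of 2. Exon lengths came from the merged exons of GENCODE vM21. No column held the authors' own comparisons.

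The members and the 16 marker lists were chosen with earlier results of these data known. The 9 members, Gsdmd, up to 3 called genes of at least 1 CPM per list and comparison with the largest change, defining markers of cell types that share a member, and the 3 genes most like Dcx, Eomes, Calb2 and Sox2 may be named; those most like Dcx are not reported here. Alternatives were DESeq2 1.42.0, DESeq2 size factors, library size only, no filter, at least 10 counts in every library, fits of only the 2 groups in a comparison, thresholds of 1.5-fold or of q = 0.05, the room air label for mouse GSD408, and each mouse left out in turn. The procedure was tested on simulated data of these group sizes, with changed genes drawn at random from those above 1 CPM. In KO-RA vs WT-RA, edgeR called 69 of 100 genes set to 1.5-fold, 92 of 100 set to 2-fold and 13 of 16447 left unchanged. At 27272270 to 28257496 estimated counts per library, 1 CPM is a small number of reads, so genes such as Eomes carry counting error beside the spread between mice.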

Additional observations from a re-analysis of the deposited data

Results flagged for a closer look

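The groups of 4 mice, WT-RA and WT-O2, were examined for each of the 9 genes, which gave 18 sets of values. In 2 of the 18 sets, 1 mouse lay far from the other 3, and both times it was WT-RA mouse GSD401. For Sox11 its 20.3 CPM lay below the 31.2 to 32.7 CPM of the other WT-RA mice, a gap of 0.883 of the range of the group. For Igfbpl1 its 4.20 CPM lay below 14.4 to 15.9 CPM, a gap of 0.867 of the range. Both gaps were above Dixon's critical value for 4 values, which chance passes in about 1 of 20 independent sets. The 18 sets share the same mice and are not independent, so their number cannot be set against this rate. Without this mouse the log2 fold change of KO-RA vs WT-RA was 0.47 for Sox11 and 0.96 for Igfbpl1, and both remained called by edgeR. The same mouse had the highest Sox2 and the lowest Prox1 of its group.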

How the results depend on the processing

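No paired analysis was made. Each mouse had a single genotype and exposure, and the litter of each mouse is not in the labels used here, so litter was not modelled. Of 23 alternatives, 14 left out 1 mouse, and the thresholds of 1.5-fold and of q = 0.05 changed calls but no values. Over the other 21 (20 for the interaction), 870 of 936 values of single genes kept their direction and their side of the threshold, 14 lost a call, 12 gained one and 40 changed sign, none of them a called value. At q = 0.05, Igfbpl1 also lost its call in KO-O2 vs WT-O2. The genes called in KO-RA vs WT-RA numbered 4, and 3 to 5 under all alternatives. In KO-O2 vs WT-O2 they numbered 3, ranged from 2 to 4 with 1 mouse left out, and were 5 when only these 2 groups were fitted (Sox11, Eomes, Neurod1, Calb2 and Igfbpl1). No gene was called in the other comparisons under any alternative.

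The cause of the sign changes was not tested. Calb2 in KO-RA vs WT-RA was 0.00534 with DESeq2, 0.00559 with DESeq2 size factors and 0.0143 with no filter. The interaction was 2.20e-05 for Sox2 with DESeq2 and 0.00481 for Nes with mouse GSD408 as room air. With 1 mouse left out, the log2 fold change of KO-O2 vs KO-RA ranged from -0.0375 to 0.219 for Dcx, -0.16 to 0.11 for Sox11, -0.16 to 0.26 for Eomes, -0.0196 to 0.196 for Neurod1, -0.0889 to 0.0449 for Calb2, -0.120 to 0.0524 for Nes, -0.0202 to 0.129 for Igfbpl1 and -0.0350 to 0.0652 for Sox4. For WT-O2 vs WT-RA it ranged from -0.0272 to 0.205 for Sox11 and -0.0888 to 0.0476 for Nes. For KO-RA vs WT-RA it ranged from -0.31 to 0.29 for Calb2 and -0.0958 to 0.0406 for Nes, and for KO-O2 vs WT-O2 from -0.129 to 0.0410 for Nes. The interaction ranged from -0.0693 to 0.0592 for Sox2 and -0.102 to 0.0810 for Nes. On simulated data of KO-RA vs WT-RA, 69 of 100 changes of 1.5-fold were called. Smaller changes, and 3 mice against 3, were not simulated.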
